A study of Mus musculus with 8 samples.

Results

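Iron regulation and haem scavenging were followed through 10 genes (Aco1, Ireb2, Tfrc, Slc11a2, Steap3, Fth1, Ftl1, Ncoa4, Slc40a1 and Hpx) among the 56980 genes of the deposited count table. They were taken by symbol because they encode the proteins that sense, import, store, release and export iron and that bind free haem. Aco1 and Hpx had been noted as higher in HADA in these same libraries, so their difference between the groups is described here without a test, and the other 8 genes were tested. All 10 passed the filter on low counts.

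The libraries were made from Tregs, the regulatory T cells that restrain immune responses. The cells were sorted by flow cytometry from the peripheral blood of male C57BL/6j mice bought at 8 weeks of age. The study defines Tregs as CD4+CD25+ in its suppression assay, and its RNA-seq methods name no markers. The HADA group (high-altitude de-acclimatization) had lived under low pressure and low oxygen, set to mimic 6000 m, for 28 days before its return to normoxia, and control mice had stayed in normoxia throughout. There were 4 libraries per group, replicates 1 to 4. The sources used here do not say on which day the cells for RNA-seq were sorted, or whether a library came from 1 mouse or from pooled mice, so that p-values measure the spread between these libraries.

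Cells set their iron balance mainly after transcription. When iron is scarce, the iron regulatory proteins IRP1 (encoded by Aco1) and IRP2 (encoded by Ireb2) bind iron-responsive elements (IREs), short RNA hairpins with a CAGUGN loop. Bound in the 5′ untranslated region (UTR) of ferritin or ferroportin mRNA they block translation, and bound in the 3′ UTR of the transferrin receptor mRNA they protect it from decay. When iron is plentiful, IRP1 carries an iron-sulfur cluster and works as cytosolic aconitase, while IRP2 is degraded. Activated T cells need the transferrin receptor for their iron supply. Of the 10 mRNAs, the level of Tfrc mRNA is the one best known to follow IRP binding, whereas the ferritins and ferroportin are controlled by IREs at the step of translation, which counts do not show.

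Such hairpins could be found in the genome for some of these genes, and they are shown because they sort those genes by direction of control. Annotated UTRs of GRCm39 (GENCODE vM39) were searched for a 6-base loop CAGTGN, with N any base but G. The loop had to be closed by a stem of 5 base pairs (G-U pairs allowed). A C was required directly below the stem on the 5′ side, and whether it is unpaired was not checked. This pattern was present in 4 of the 10 genes, and in 160 of 21575 protein-coding genes (0.742%). Each line gives 30 bases, 5′ to 3′ on the strand of the gene and written as DNA, with the loop in capitals.
Fth1, 5′ UTR, chr19:9960096-9960125, plus strand: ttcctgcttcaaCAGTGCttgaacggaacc
Ftl1, 5′ UTR, chr7:45109202-45109231, minus strand: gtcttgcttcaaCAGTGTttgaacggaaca
Slc40a1, 5′ UTR, chr1:45964624-45964653, minus strand: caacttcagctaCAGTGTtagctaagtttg
Tfrc, 3′ UTR, chr16:32450037-32450066, plus strand: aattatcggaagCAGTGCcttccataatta
Tfrc, 3′ UTR, chr16:32450416-32450445, plus strand: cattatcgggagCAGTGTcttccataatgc
Tfrc, 3′ UTR, chr16:32450481-32450510, plus strand: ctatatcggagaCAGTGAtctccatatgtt
Tfrc, 3′ UTR, chr16:32450528-32450557, plus strand: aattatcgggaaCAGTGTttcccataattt
The 2 ferritin hairpins share the same upper stem, ttcaa against ttgaa, and Tfrc holds 4 hairpins in its 3′ UTR. A match says only that the letters are present, and a gene without a match, such as Slc11a2, may hold a hairpin that this strict pattern misses.

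Total counts were 1477431 in control replicate 1 and between 14452433 and 28240337 in the other 7 libraries, and counts were scaled to CPM (reads of a gene relative to the TMM-scaled size of its library). The deposited lengths equal the whole span of each gene, introns included, and the 1077 protein-coding genes fully covered by other genes on either strand were all listed at 0, among them the Treg factor Foxp3. The 8 Treg and CD4 T cell genes, Foxp3 among them, summed to between 1949 and 6699 CPM in HADA and between 261 and 1728 CPM in control. All 7 tested genes of this list had a positive log2 fold change, HADA minus control. Il2ra had between 163 and 748 CPM in HADA and between 7.23 and 178 CPM in control, and Cd3e went down to 1.41 CPM in control. The part of this difference in the values of the members was not tested. Reads over genes that T cells do not use were measured on 1319 olfactory and vomeronasal receptor genes, after the 5% of highest density had been left out. Their density was 0.0426 CPM per kb in control replicate 1, between 0.184 and 0.331 in the other control libraries, and between 0.0543 and 0.0811 in HADA. With the densest genes kept it was 0.0494, between 0.202 and 0.337, and between 0.121 and 0.211, so that control replicate 4 lay within the HADA range. The cut, made after seeing the data, lowered the HADA densities most and so raised the HADA multiples of them given below. Spread evenly over all gene spans, that density would make up 84.2%, 41.5% and 16.9% of the counts of control replicates 2, 3 and 4, against 5.34% in control replicate 1 and from 3.9% to 9.71% in HADA. Each gene was therefore also given as its own density per kb, counted over the part of its span free of other genes, divided by the receptor density of the same library.

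**Figure D1:**
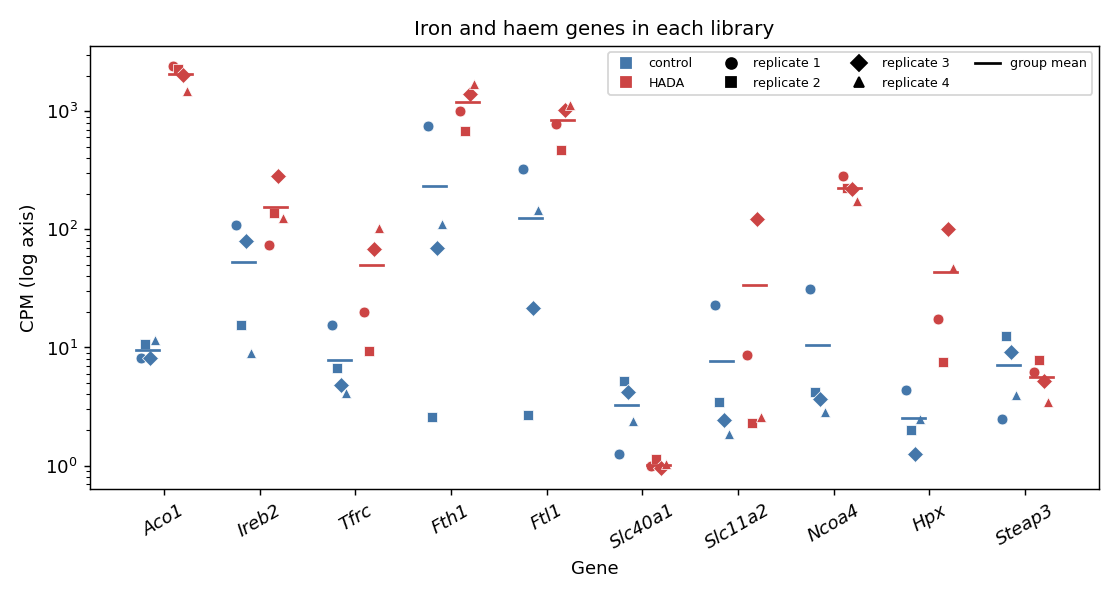
CPM (log axis) of the 10 genes in each library, with controls in blue, HADA in red, marker shapes for replicates and a bar for the group mean. Aco1, Ncoa4, Ftl1 and Hpx are separate between the groups and higher in HADA, Slc40a1 is separate and lower, and the other 5 overlap.

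Aco1 was the member with the widest gap between the groups. Its level was 2414, 2279, 2008 and 1496 CPM in HADA replicates 1 to 4, and 8.08, 10.8, 8.07 and 11.5 CPM in control replicates 1 to 4. In counts these are 24880 to 61203 reads in HADA against 13 to 345 in control. All HADA libraries were far above all control libraries, and the spread within each group was small (coefficient of variation 19.8% in HADA and 18.6% in control). The log2 fold change, HADA minus control, was 7.73 (SE 0.76), and it ran from 7.53 to 7.98 when any 1 library was left out. Aco1 lies at chr4:40143081-40198338 on the plus strand, and no other gene overlaps its span. In control replicates 2, 3 and 4 its density was 0.590, 0.513 and 1.13 times that of the receptor genes, and in control replicate 1, where it rests on 13 counts, 3.43 times. In HADA it was 499 to 578 times the receptor density. In HADA the Aco1 level and the receptor density were both lowest in replicate 4, and relative to the receptor density the coefficient of variation of Aco1 was 7.09%.

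Ireb2, which encodes the partner protein IRP2, gave another picture. It had 73.8, 138, 283 and 126 CPM in HADA replicates 1 to 4 and 109, 15.5, 79.5 and 9.04 CPM in the controls. The groups overlapped, since control replicate 1 was above HADA replicate 1. Its log2 fold change of 1.55 (SE 0.92) did not pass the test (edgeR, adjusted p = 0.272). The number of Aco1 counts per Ireb2 count was between 7.09 and 32.7 in HADA and between 0.0739 and 1.27 in control. This ratio uses the Aco1 difference for which the gene was noted and is given as a description.

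Tfrc, the receptor that takes up transferrin-bound iron, had 19.8, 9.34, 68.0 and 103 CPM in HADA and 15.5, 6.73, 4.82 and 4.11 CPM in control. HADA replicates 3 and 4 were above every control library, while HADA replicate 2 was below control replicate 1. The log2 fold change was 2.71 (SE 0.98), which did not pass the test over all genes (edgeR, adjusted p = 0.128). In control replicates 2 to 4 its density was 0.709 to 0.936 times that of the receptor genes, against 4.82 to 79.8 times in HADA, but in control replicate 1 it was 15.3 times, above HADA replicates 1 and 2. Tfrc is also abundant in erythroid precursors. The summed level of 8 erythroid genes, mostly haemoglobins, was between 147 and 2809 CPM in HADA and between 1033 and 28397 CPM in control, with the highest value in control replicate 1, and its part in the Tfrc values was not tested.

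Slc11a2 encodes DMT1, which carries iron out of the endosome, and Steap3 the reductase that prepares it for that step. Slc11a2 was high in HADA replicate 3 alone, with 122 CPM, and had 8.72, 2.30 and 2.59 CPM in HADA replicates 1, 2 and 4. The controls had 23.0, 3.44, 2.45 and 1.85 CPM, so the groups overlapped widely. Its log2 fold change of 2.19 (SE 1.40; edgeR, adjusted p = 0.303) became -0.63 without HADA replicate 3. Steap3 had 6.19, 7.79, 5.20 and 3.49 CPM in HADA and 2.49, 12.6, 9.19 and 3.94 CPM in control. Its log2 fold change was -0.33 (SE 0.71; edgeR, adjusted p = 0.764), and its density was 0.784 to 1.17 times that of the receptor genes in HADA and 0.261 to 0.712 times in control. In these libraries Steap3 thus had at most about the density of genes that T cells do not use.

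**Figure D2:**
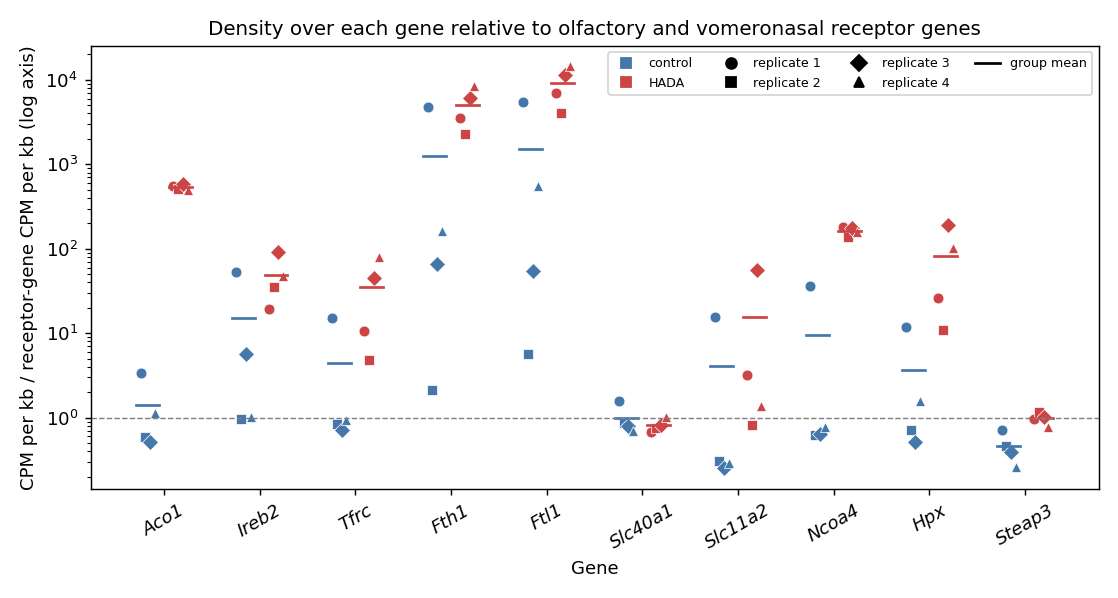
Density of each gene (CPM per kb of span free of other genes) divided by the density of the receptor genes of the same library, on a log axis, with the dashed line at 1. Slc40a1 and Steap3 stay near or below the line in both groups, whereas Aco1, Ncoa4 and Tfrc are near the line in control replicates 2 to 4 and above it in HADA.

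The ferritin genes were the most abundant members per kb. Fth1 encodes the heavy chain of the ferritin shell, which oxidizes iron for storage, and had 1010, 678, 1396 and 1691 CPM in HADA and 757, 2.60, 70.0 and 110 CPM in control. Control replicate 1 was above HADA replicate 2, and the other 3 control libraries were below all HADA libraries. The log2 fold change was 2.35 (SE 1.18; edgeR, adjusted p = 0.213). Ftl1 encodes the light chain, which helps the iron core to form, and had 779, 467, 1018 and 1120 CPM in HADA and 327, 2.69, 21.8 and 146 CPM in control. The groups did not overlap, but the log2 fold change of 2.77 (SE 1.13) did not pass the test (edgeR, adjusted p = 0.157). Neither gene was called in this fit, but both were with control replicate 1 left out. The log2 fold change was then 4.40 for Fth1 (edgeR, adjusted p = 0.028) and 4.0 for Ftl1 (edgeR, adjusted p = 0.0448). That fit called 15.5% of all tested genes higher and 19.7% lower. Other genes cover 18.2% of the Fth1 span and 27.0% of the Ftl1 span.

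Ferritin is a shell of both chains, and their proportion does not depend on library size. The log2 ratio of Fth1 to Ftl1 counts was 0.37, 0.54, 0.45 and 0.59 in HADA replicates 1 to 4, and 1.21, -0.05, 1.68 and -0.41 in the controls. The HADA libraries were close together and lay inside the range of the controls. The mean was 0.49 ± 0.0962 in HADA and 0.61 ± 0.997 in control (SD, n = 4 each), and the difference of -0.12 was within that spread (p = 0.83 in an exact permutation test, two-sided, whose smallest p here is 0.029). The ferritin genes are also abundant in monocytes and macrophages. Summed over 10 genes of these cells the level was between 964 and 3614 CPM in HADA and between 81.8 and 1857 CPM in control, mostly from Lyz2, with the highest control value in replicate 1. In bulk libraries a change in the share of such cells and a change in RNA per cell cannot be told apart, and the part of these cells in the ferritin values was not tested.

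Ncoa4, the adaptor that hands ferritin to autophagy and so releases stored iron, was the only one of the 8 tested members past the thresholds, which ask for more than 1 on the log2 scale in either direction and for an adjusted p under 0.05. Over all 21991 tested genes 1.65% were called higher and 0.477% lower in HADA. Ncoa4 had 281, 223, 219 and 173 CPM in HADA replicates 1 to 4, and 31.1, 4.20, 3.63 and 2.84 CPM in the controls. All HADA libraries were above all control libraries, and control replicate 1 stood apart from the other controls. Its log2 fold change was 4.47 (SE 1.02; edgeR, adjusted p = 0.0442). The call was lost when any library other than control replicate 1 was left out (edgeR, adjusted p from 0.0792 to 0.151), with log2 fold changes from 4.10 to 4.64. In those fits 28 to 249 genes were called higher over all tested genes, against 363 with all libraries. Without control replicate 1 the log2 fold change was 6.12 (edgeR, adjusted p = 0.00422), in a fit that called 15.5% of all tested genes higher.

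Most of the Ncoa4 coding sequence has a near-identical copy in the genome. Ncoa4-ps, a processed pseudogene of 1878 bases on chromosome 12, is 99.9% identical to an Ncoa4 transcript without gaps, and 88.8% of its 1779 windows of 100 bases occur unchanged in Ncoa4 transcripts. It was given 4059, 3320, 2261 and 1741 counts in HADA and 1, 3, 1 and 0 in control. Per Ncoa4 count this was 0.569 to 0.624 in HADA and at most 0.0224 in control. The Ncoa4 level is therefore uncertain, since how the counting placed reads that fit both copies is not given in the sources used here.

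Slc40a1 encodes ferroportin, the only known exporter of non-haem iron from cells. It was low everywhere, with 0.986, 1.13, 0.945 and 1.02 CPM in HADA and 1.24, 5.23, 4.23 and 2.38 CPM in control. The HADA libraries were all below the control libraries, of which replicate 1 had only 2 counts, under the 3 counts taken as the floor. The log2 fold change was -1.73 (SE 0.58) and did not pass the test (edgeR, adjusted p = 0.113). Without control replicate 1 it did, at -1.79 (edgeR, adjusted p = 0.0133), in a fit that called 19.7% of all tested genes lower. Its density was 0.680 to 1.02 times that of the receptor genes in HADA and 0.699 to 1.58 times in control. With the densest receptor genes left out, the receptor density was also lower in HADA than in control replicates 2 to 4. With them kept, control replicate 4 lay within the HADA range. Control replicate 1 had the lowest receptor density of all, and its Slc40a1 level rests on 2 counts. The part of the receptor density in the Slc40a1 values was not tested. No Slc40a1 level above that of the receptor genes was seen in 3 of the 4 control libraries.

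Hpx encodes hemopexin, the plasma protein that binds free haem and is made mainly by the liver. It had 17.4, 7.54, 101 and 47.3 CPM in HADA replicates 1 to 4 and 4.35, 2.0, 1.26 and 2.49 CPM in the controls. All HADA libraries were above all control libraries, but they differed widely among themselves (coefficient of variation 97.3%), with HADA replicates 3 and 4 highest. The log2 fold change was 4.15 (SE 1.05), from 3.41 to 4.64 with any 1 library left out. Hpx was 10.9 to 189 times the receptor density in HADA, and in the controls 12 times in replicate 1 (7 counts) and 0.518 to 1.59 times in the others, so that on this measure control replicate 1 was above HADA replicate 2. The 8 hepatocyte genes, Alb among them, summed to between 5.59 and 8.40 CPM in HADA and between 6.21 and 25.5 CPM in control.

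**Figure D3:**
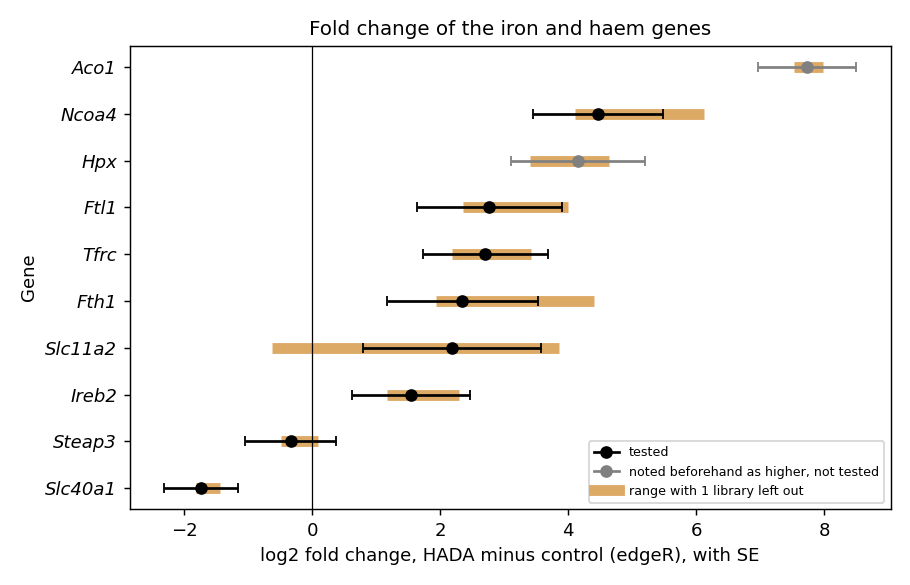
Log2 fold change of each gene, HADA minus control, with its SE (edgeR, 4 libraries per group), in grey for Aco1 and Hpx, which were not tested, and with the range over fits that leave out 1 library as an orange band. Of the 10 bands, those of Slc11a2 (-0.63 to 3.86) and Steap3 (-0.49 to 0.10) cross 0.

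Of the 8 tested members, 6 had a positive log2 fold change and 2 a negative one, with a median of 2.27 beside 0.01 over all tested genes. With the receptor density subtracted, taken with all receptor genes or without the densest, 5 members could be fitted. Their median was then 2.48 or 2.52, beside 1.0 or 1.34 over all tested genes. The groups were separate for 2 of the 8 with HADA higher (Ftl1 and Ncoa4) and for Slc40a1 with HADA lower, where over all tested genes 9.13% were separate and higher and 5.7% separate and lower. With control replicate 1 left out, 4 of the 8 were called higher (Fth1, Ftl1, Ncoa4 and Tfrc) and Slc40a1 was called lower, but then 15.5% of all 24048 genes tested were called higher and 19.7% lower. Together the 10 genes took up 0.298% to 0.414% of all counts in HADA and 0.0145% to 0.139% in control. Aco1 alone held 0.0936% to 0.237% in HADA and 0.00088% to 0.00239% in control. These shares include the genes noted as higher and are given as a description.

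The order of the levels per kb was not the same in the groups. In HADA it ran from Ftl1 with 598 ± 205 CPM per kb (SD, n = 4) over Fth1 with 324 ± 120 to Aco1 with 37.1 ± 7.34 and Ncoa4 with 11.2 ± 2.23. Hpx followed with 5.09 ± 4.95, then Ireb2 with 3.18 ± 1.84 and Tfrc with 2.10 ± 1.83, and Slc11a2, Steap3 and Slc40a1 had means under 1 CPM per kb. Neighbours in this order overlapped in range, apart from Fth1 against Aco1 and Aco1 against Ncoa4. In control, Ftl1 with 87.9 ± 106 CPM per kb and Fth1 with 63.8 ± 95.3 again came first, and Aco1 with 0.174 ± 0.0324 was in the place before the last, ahead of Steap3. All neighbours in the control order overlapped. The change in the place of Aco1 restates the difference for which the gene was noted, so the orders are given as a description.

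**Figure D4:**
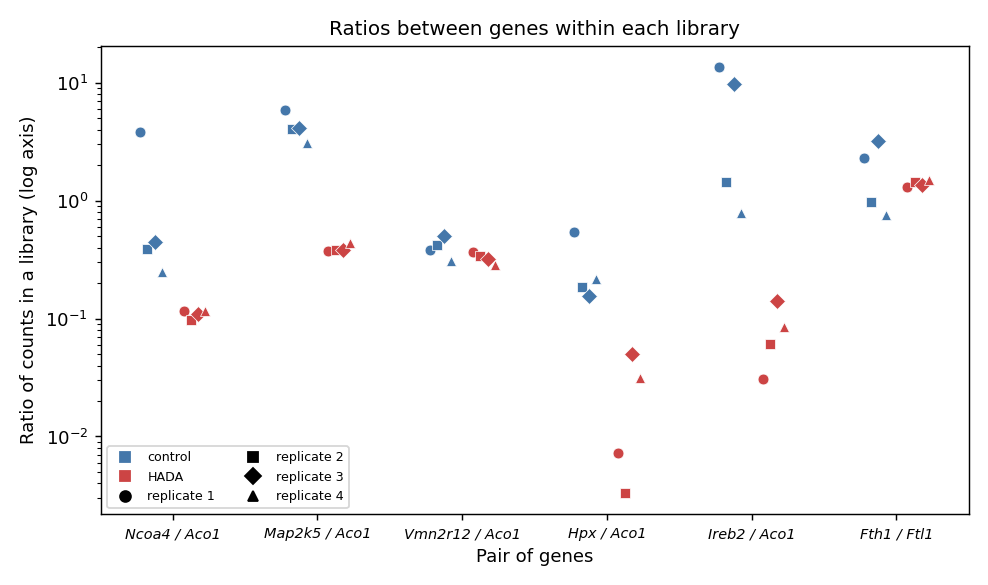
Ratio of the counts of a pair of genes within each library (log axis), with controls in blue and HADA in red. The ratios of Ncoa4, Map2k5 and Vmn2r12 to Aco1 and of Fth1 to Ftl1 are tight over the 4 HADA libraries, whereas those of Hpx and Ireb2 to Aco1 spread over a wider range.

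Within the HADA libraries, Aco1 and Ncoa4 kept nearly the same proportion. There were 0.117, 0.0977, 0.109 and 0.115 Ncoa4 counts per Aco1 count in HADA replicates 1 to 4, a coefficient of variation of 7.86%, and 3.85, 0.388, 0.450 and 0.247 in the controls. Hpx did not follow Aco1 in this way, with 0.00331 to 0.0505 Hpx counts per Aco1 count in HADA (coefficient of variation 95.6%). The genes whose log2 CPM followed Aco1 most closely over the 8 libraries, which share the 2 groups and their depths, were Vmn2r12 (Pearson r = 0.999), Gm18795 (0.998), Gm11971 (0.998), Gm45533 (0.997) and Map2k5 (0.996). Vmn2r12, a vomeronasal pheromone receptor, had 429 to 890 CPM in HADA and 3.11 to 4.57 CPM in control. Map2k5, the kinase MEK5, had 656 to 911 CPM in HADA and 33.1 to 47.8 CPM in control. Gm18795 and Gm11971 are annotated as pseudogenes and Gm45533 as a long noncoding RNA, and the 5 genes lie on chromosomes 5, 12, 11, 4 and 9. Among the members, Ncoa4 was the closest to Aco1 (r = 0.927).

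The genes most like Hpx were Srsf3 (Pearson r = 0.972), a splicing factor, Mrpl39 (0.970), a protein of the mitochondrial ribosome, Get3 (0.968), Strn3 (0.968) and Zfp160 (0.968), over the same 8 libraries. Get3, which delivers tail-anchored proteins to the endoplasmic reticulum, had 6.28 to 133 CPM in HADA and 0.175 to 5.59 CPM in control. Among the members, Tfrc was the closest to Hpx (r = 0.933), both with their highest values in HADA replicates 3 and 4. These correlations are descriptions, without a test.

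A wider list of 78 iron and haem genes in 8 roles showed how the rest of the pathway stood. Of the 69 that could be tested, 44 had a positive and 25 a negative log2 fold change, with a median of 0.73 beside 0.01 over all tested genes. The median over all tested genes was 1.0 or 1.34 with either receptor density subtracted, settings for which a median of this list is not given. Hfe was called higher and none lower at the thresholds (edgeR), near the 1.65% and 0.477% of all genes. The groups were separate for 7 genes with HADA higher and 2 with HADA lower, where 9.13% and 5.7% of all genes were separate. Hfe, the haemochromatosis protein that takes part in setting hepcidin, had 33.3, 45.3 and 54.0 CPM in HADA replicates 1 to 3, but 0.481 CPM in replicate 4 against 0.579 to 1.10 CPM in control. Its log2 fold change was 5.38 (SE 1.25; edgeR, adjusted p = 0.0488). The call was lost in 9 of the 13 alternatives that could be fitted. The adjusted p was 0.0789 to 0.159 in edgeR without control replicate 2, 3 or 4 or HADA replicate 1, 2 or 3, and 0.0835 in limma. In those edgeR fits 28 to 211 genes were called higher over all tested genes, against 363 with all libraries.

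**Figure D5:**
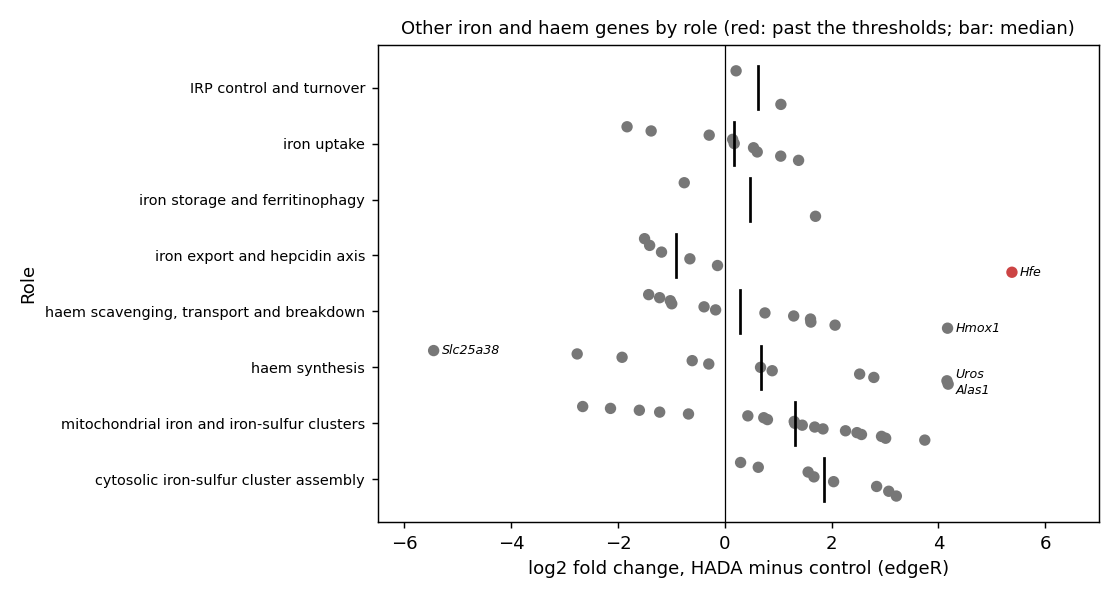
Log2 fold change, HADA minus control, of the 69 tested genes of the wider list, grouped by role, with a bar at the median of each role and Hfe, the gene past the thresholds, in red. Genes beyond 4 in either direction are named, and all 8 tested genes of cytosolic iron-sulfur cluster assembly lie above 0, of which Ciao1 and Nubp2 turned negative under other settings.

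Among the genes that control the IRPs, Fbxl5, the iron sensor that marks IRP2 for degradation, had a log2 fold change of 1.05 (SE 0.94; edgeR, adjusted p = 0.454), and the ubiquitin ligase Herc2 had 0.21 (SE 0.71; adjusted p = 0.852). Of the 9 further uptake genes tested, 6 were positive and 3 negative, and none was called. The most abundant were Trf, which encodes transferrin (log2 fold change 1.05, SE 0.99, adjusted p = 0.479), and Slc11a1, the phagosomal metal carrier (1.38, SE 1.30, adjusted p = 0.478). The iron chaperones of ferritin gave -0.76 for Pcbp2 (SE 0.97, adjusted p = 0.602) and 1.70 for Pcbp1 (SE 1.38, adjusted p = 0.409).

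In the export and hepcidin group, 5 of the 6 tested genes were negative and Hfe was positive. The ferroxidase Heph had 3.43 to 5.49 CPM in HADA and 9.32 to 16.1 CPM in control, so that the groups were separate, with a log2 fold change of -1.50 (SE 0.67; edgeR, adjusted p = 0.178). Its density was 0.511 to 0.598 times that of the receptor genes in HADA and 0.420 to 1.89 times in control. The other negative genes of this group had 0.446 to 1.47 times the receptor density in HADA and 0 to 1.29 times in control. With the receptor density subtracted, 0 or 1 gene of the group could be fitted, so its negative direction rests on genes near the receptor density. Bmp6, a signal that raises hepcidin, gave -1.18 (SE 0.75; adjusted p = 0.302). Hamp and Hamp2, the hepcidin genes, were listed at 0 in every library, and their spans are fully covered by other genes.

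Of the 12 further genes of haem scavenging, transport and breakdown, 6 were positive and 6 negative. The most abundant were the haem transporters Slc48a1 (log2 fold change -0.39, SE 1.07; edgeR, adjusted p = 0.819) and Flvcr1 (1.61, SE 1.12; adjusted p = 0.340). Hmox1, the inducible enzyme that breaks haem down and a well-known target of the transcription factor Nrf2, was looked at after its values were seen. It had 0.295 to 46.5 CPM in HADA and 0.232 to 3.73 CPM in control, overlapping groups, with a log2 fold change of 4.17 (SE 1.35; adjusted p = 0.106). Nrf2 binds the sequence TGACNNNGC, which was searched on both strands in the 250 bases before the start of genes in RefSeq promoters of GRCm38.p6. It was present in 10.2% of 32851 promoters and, among the 8 members with a listed promoter, in those of Hpx and in 1 of 2 listed for Ncoa4. A match is a description of these letters and not a binding site.

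In haem synthesis, 6 of the 11 tested genes were positive and 5 negative. Uros, which closes the porphyrin ring, had 269 to 376 CPM in HADA and 0.985 to 39.4 CPM in control, separate groups with a log2 fold change of 4.16 (SE 1.11; edgeR, adjusted p = 0.0715). Cpox gave -0.30 (SE 0.76; adjusted p = 0.802). Alas1, the rate-limiting enzyme outside the erythroid lineage, was also separate and higher in HADA (log2 fold change 4.18, SE 1.13, adjusted p = 0.0735). The erythroid form Alas2 was listed at 0 everywhere, with its span fully covered by other genes.

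The medians of the iron-sulfur cluster genes were the highest of the 8 roles in the fit on all libraries. For 19 mitochondrial genes, of which 14 were positive, the median log2 fold change was 1.31, and for 8 cytosolic assembly genes, all positive, it was 1.85, beside 0.01 over all tested genes. These contrasts were smaller with the receptor density subtracted, taken with all receptor genes or without the densest. The mitochondrial median was then 1.80 or 1.88 and the cytosolic one 1.74 or 1.91, beside 1.0 or 1.34 over all tested genes. The mitochondrial median was 0.03, with 7 genes positive and 7 negative, when libraries were drawn down, and 0.75 with at least 10 counts in every library. Ciao1 turned negative under both of these settings, when either receptor density was subtracted, and without control replicate 2, control replicate 3 or HADA replicate 4, and Nubp2 turned negative when libraries were drawn down and without HADA replicate 3. None of these 27 was called. Ciao2a, which helps to insert the cluster into IRP1, had 115 to 471 CPM in HADA and 1.75 to 97.6 CPM in control, separate groups with a log2 fold change of 3.07 (SE 1.22; edgeR, adjusted p = 0.149). Ciao1, a scaffold of the same complex, gave 0.30 (SE 1.24; adjusted p = 0.881). In mitochondria the chaperone Hspa9 gave -0.68 (SE 1.03; adjusted p = 0.664) and the iron importer Slc25a37 gave -1.60 (SE 1.03; adjusted p = 0.307).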

How the data were processed

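Tregs from 4 HADA and 4 control samples were profiled by RNA-seq, with cDNA from a low-input kit. Per the study's methods and the submitters' processing notes, reads went through FastQC and Trimmomatic, STAR placed them on GRCm39, and featureCounts counted them. The authors deposited these raw counts without normalization. The strand and multi-mapping settings of featureCounts are not given in the sources used here. Gene names came from GENCODE vM39, where 98.7% of identifiers were found. Coordinates of genes are those of the deposited table, and hairpins were read from the GRCm39 genome.

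Counts were tested with edgeR 4.0.16 (TMM, filterByExpr, quasi-likelihood test, Benjamini-Hochberg adjustment over 21991 genes) in R 4.3.3, without covariates. Calls used the study's thresholds (adjusted p under 0.05 and more than 1 on the log2 scale in either direction). Log2 CPM used a prior count of 2. The ratio of Fth1 to Ftl1 counts used an offset of 0.5 and an exact permutation test. The method was tested on simulated counts that varied less between libraries than these do and held no background differing between libraries. That test therefore cannot say how the method does on these data. Total counts were from 1477431 to 28240337, a floor of 3 counts was taken, and both cover counting error only, since copies of a cDNA molecule are not told apart. No 2 libraries had identical counts.

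The members, lists and tests were chosen with earlier results of these data known. The text names all 10 members, every called gene of the wider list, the 2 most abundant genes of each role in it, and the 5 genes most correlated with Aco1 and with Hpx. Genes outside this rule are Hmox1 and Alas1, the genes listed at 0 and the pseudogene Ncoa4-ps, chosen after their values were seen. Alternatives were DESeq2 1.42.0 and its size factors, limma 3.58.1 on log2(CPM + 1), subtraction of the receptor-gene density, drawing all libraries down to the smallest total, no filter, a minimum of 10 counts in each library, a replicate block, and leaving out each library. Leaving the 5% densest receptor genes out of that density was added after seeing the data, because Vmn2r12 held a large part of it in HADA.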

Additional observations from a re-analysis of the deposited data

Results flagged for a closer look

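The log2 CPM of Ncoa4 in control replicate 1 was 4.96, far from the other 3 control libraries, which lay between 1.55 and 2.10. It was the only one of 22 groups of 4 values (the 10 genes and the ferritin ratio in each group) with such a gap by Dixon's criterion, and chance alone flags about 1 in 20. Control replicate 1 is the library with the fewest counts, and Ncoa4 had 50 counts there. Its part in this value was not tested. The HADA libraries had log2 CPM between 7.43 and 8.14.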

How the results depend on the processing

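Of the 8 tested members, 1 was called higher and 0 lower. DESeq2 called 3 higher (Ftl1, Ncoa4 and Tfrc) and 1 lower (Slc40a1). No member was called higher without a filter, with libraries drawn down, or with either receptor-gene background subtracted (0 in each). Leaving out a library gave 0 to 4 higher and 0 to 1 lower, the most without control replicate 1. In the wider list 1 gene was called higher and 0 lower. DESeq2 gave 10 higher and 3 lower, limma 2 higher, and at least 10 counts in every library gave 1 lower (Lyrm4). DESeq2 size factors, drawing down, either background subtraction and the replicate block gave 0 higher. Leaving out a library gave 0 to 19 higher and 0 to 8 lower. Over all genes DESeq2 called 2080 higher and 3465 lower, against 363 and 105 with edgeR. Called higher over all genes were 408 without a filter, 62 with libraries drawn down, and 98 or 855 with background subtracted. Limma called 814 higher, DESeq2 size factors 281 and the replicate block 158. At least 10 counts in every library gave 93 higher and 133 lower. Leaving out 1 library gave 28 to 249 higher and 1 to 25 lower, but 3716 and 4732 without control replicate 1.

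The difference in the log2 ratio of Fth1 to Ftl1, -0.12, turned to 0.41 with libraries drawn down and to 0.048 or 0.040 with the background of all receptor genes, or of those without the densest, subtracted. It ran from -0.46 to 0.24 with 1 library left out, and none of these passed a test. The log2 fold change of Slc11a2 ran from -0.63 (without HADA replicate 3) to 3.86 with 1 library left out, and that of Steap3 from -0.49 to 0.10, and without a filter it was 0.045. The cause of these reversals was not tested. The other 8 members kept their direction under every alternative that could be fitted. Slc40a1, Steap3 and Slc11a2 could not be fitted once the background was subtracted, Slc40a1, Steap3 and Hpx at 10 counts in every library, and Slc40a1 and Hpx with libraries drawn down. Aco1 ran from 6.78 to 10.7 and Hpx from 3.14 to 4.94. Over all genes tested, the median log2 fold change, 0.01, was -0.19 with DESeq2 size factors, -0.99 in DESeq2 and 1.0 or 1.34 after subtraction.

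Replicate numbers did not mark pairs. The correlations of same-numbered libraries' deviations were -0.21, 0.25, -0.08 and -0.003, and only replicate 2 correlated best with its own number. With the replicate block the ferritin difference was -0.12 (exact test over sign flips, p = 0.875), Ncoa4 stayed called and Hfe did not (adjusted p = 0.148). Depth limits control replicate 1, where Aco1, Hpx, Slc40a1 and Steap3 rest on 13 counts or fewer.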

Other observations

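Ltf, which encodes the iron-binding protein lactoferrin of neutrophil granules and milk, was singled out after its values were seen. It had between 1172 and 1726 CPM in HADA and between 3.19 and 21.4 CPM in control, so that the groups did not overlap. The other 7 genes of the neutrophil list summed to between 12.3 and 87.5 CPM in HADA and between 3.07 and 306 CPM in control, and Elane, a neutrophil protease, stayed at or below 0.126 CPM in every library. Platelet genes summed to between 267 and 1661 CPM in HADA and between 42.3 and 470 CPM in control, and B cell genes to between 850 and 2904 CPM in HADA and between 75.1 and 2271 CPM in control.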
